A study of Oryza sativa with 4 samples.

Results

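Split regions are stretches of the rice genome that carried a single uninterrupted peak of accessible chromatin in each library from unheated root tips, and at least 2 peaks in each library from heated root tips. They were found by merging all peaks of 4 libraries that shared at least 1 bp. Merging gave 66332 regions, of which 55496 had a peak in all 4 libraries, and 1882 of these (3.39%) met the rule. The libraries were made by single-cell ATAC-seq of nuclei from the last 5 mm of primary roots of seedlings 3 days old, of the cultivar Nipponbare grown at 28 °C. The HS libraries (replicates 1 and 2) came from root tips exposed to 45 °C for 3 h, and the Normal libraries (replicates 1 and 2) from root tips that were not, with 120 root tips in a preparation. The HS libraries were made in 2 independent rounds, whereas no source used here says whether the Normal libraries came from separate pools of roots. P-values therefore measure only the spread between these libraries. No library held both conditions, so that condition and library preparation cannot be told apart.

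In ATAC-seq the transposase Tn5 cuts DNA where nucleosomes and bound proteins leave it open, and each cut leaves a sequencing adapter behind. A peak caller joins neighbouring stretches with many cut sites into a single peak until the signal between them falls below its limit, so a broad peak can hold promoters, gene bodies and distal elements together. Root hairs are tubular outgrowths of epidermal cells that take up water and nutrients, the root cap covers and protects the meristem, and the endodermis is the inner layer that controls what enters the vascular tissue.

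The nuclei were the barcodes with the most cut sites, 10719 and 10727 in the HS libraries and 12708 and 12604 in the Normal libraries. Between 93.6% and 93.8% of each library's cut sites fell in them, with totals between 328595993 and 341590315 cut sites and medians of 27765 and 28143 cut sites per nucleus in HS and of 23709 and 23839.5 in Normal. Between 163 and 254 barcodes of nuclei were shared by any pair of libraries. Each library had its own peak list and its matrix holds no cut sites outside that list, so the cut sites of an opened gap are missing from the HS counts, while those of the same bp are part of the Normal counts. Called length is given beside cut sites for this reason. The level of a region is its CPM, the cut sites in its called peaks per 1000000 cut sites of the nuclei compared, and its density is the CPM per called kb. The sources used here do not name the genome build of the coordinates.

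Most split regions were cut into 2 pieces by a single short gap. Each HS library had exactly 2 peaks in 1550 of the 1882 regions (82.4%), and each had exactly 3 in 111. The summed gap per region had a median of 702.5 bp as a mean of the HS libraries, with quartiles of 579 and 988 bp and a range of 501.5 to 9873.5 bp. The medians were 687.5 bp in HS replicate 1 and 670.5 bp in HS replicate 2. The gaps lay at nearly the same place in both: the bp shared by the gaps of both HS libraries made up a median of 91.9% of the bp covered by either, and in 12 regions they shared none.

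Gap sizes were crowded against the smallest distance that the peak lists allow. No neighbouring peaks of any of the 4 libraries lay closer than 501 bp. Gaps under 600 bp made up 38.7% of the 2196 single gaps in HS replicate 1 and 38.3% of the 2188 in HS replicate 2. Among all distances between neighbouring peaks of a library, the share under 600 bp was 7.87% and 7.99% in the HS libraries and 8.12% and 8.08% in the Normal libraries. Gaps under 1000 bp made up 83.0% and 85.1% of single gaps in the HS libraries.

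**Figure D1:**
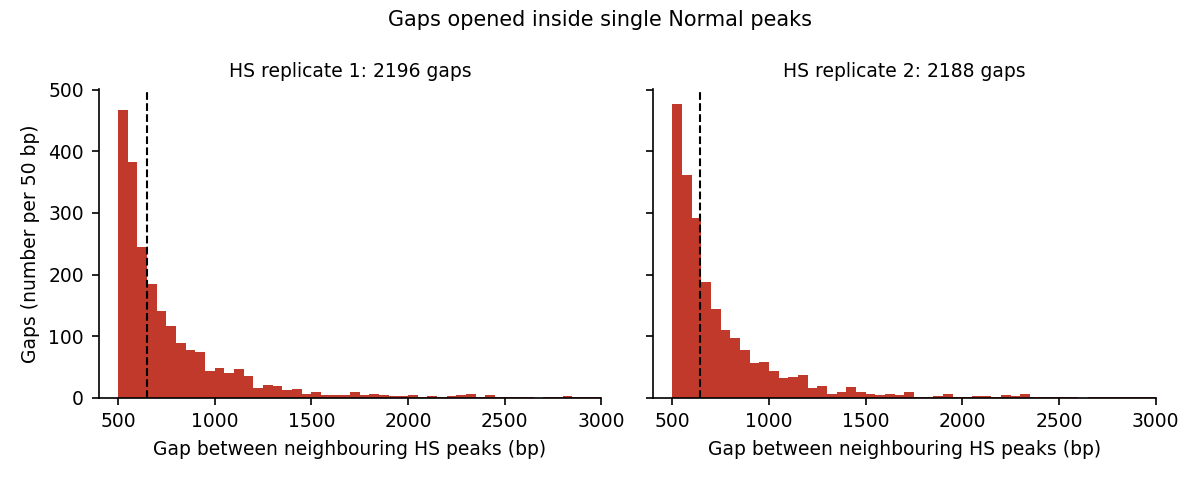
Number of gaps per 50 bp (y axis) against the bp between neighbouring HS peaks inside a region with a single peak in each Normal library (x axis), for HS replicate 1 and HS replicate 2. Dashed lines mark the medians of 651 and 641 bp, and 18 gaps of 3000 bp or more in each library lie beyond the axis; both libraries have their most frequent gaps just above 501 bp.

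The rule needs a split in both HS libraries, and as many as 1402 further regions were split in only 1 of them, 747 in HS replicate 1 and 655 in HS replicate 2. The gap in these had a median of 564 bp. The 498 split regions whose gaps were all under 600 bp in both HS libraries, the members nearest to that limit, had a median of 544.5 bp. Of the 1882 regions, 254 had a gap of at least 1000 bp in each HS library. The opposite pattern, 1 peak in each HS library and at least 2 in each Normal library, was found in 1692 regions.

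Split regions were long. The Normal peak had a median of 4516.75 bp over the 1882 regions, against 1165 bp over the 46109 regions with a single peak in every library. Its length was almost the same in both Normal libraries, which differed by a median of 31.5 bp. The share of single Normal peaks that were split in both HS libraries was 1.42% for peaks of 1000 to 2000 bp, 6.46% for 2000 to 4000 bp, 14.2% for 4000 to 8000 bp, 26.6% for 8000 to 16000 bp and 40.1% for longer ones. Of 20223 single Normal peaks shorter than 1000 bp, 2 were split. In the opposite direction the share followed nearly the same course, at 36.2% of the longest and 1.36% of the peaks of 1000 to 2000 bp. Length is part of what a split needs, since a peak must hold at least 2 pieces and 501 bp between them.

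**Figure D2:**
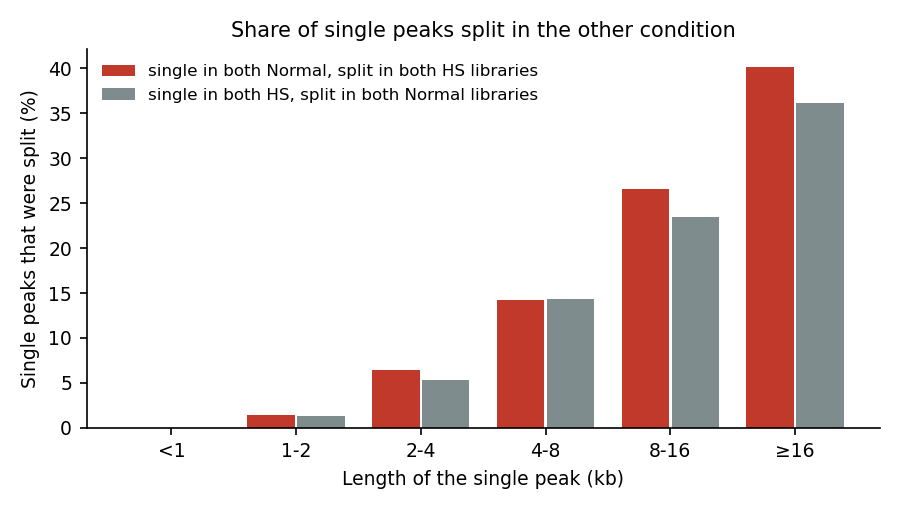
Share in percent of single peaks that were split in the other condition (y axis), by the length of the single peak in kb (x axis). Red bars are peaks single in both Normal and split in both HS libraries, grey bars are peaks single in both HS and split in both Normal libraries; both climb with length, to 40.1% and 36.2% in the longest class.

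Gaps lay along most of the Normal peak. With the peak running from 0 to 1, the gap midpoint had a median of 0.495 and quartiles of 0.330 and 0.652, and 31.9% of the 4384 gaps of both HS libraries had their midpoint in the middle of 5 equal parts of the peak, against 16.8% in the outermost parts together. A split needs a piece on each side of its gap, so the rule itself keeps midpoints from the ends. The pieces were unequal all the same: the longest piece held a median of 69.1% of the called bp and 76.6% of the cut sites of its region. The longest piece had more cut sites per kb than the shortest in both HS libraries in 1285 regions (68.3%). The median densities were 6.27 CPM per kb in the longest and 3.26 in the shortest piece.

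All 12 chromosomes held split regions. Their share of single Normal peaks ran between 2.73% on chromosome 11 and 5.47% on chromosome 1. With each chromosome cut into 5 equal parts, the share was 3.81% in the part at the start, then 2.95%, 2.62% and 4.18%, and 5.14% in the part at the end. These shares are a description without a test. For 164 split regions (8.71%) a neighbouring region was also split. Of their 3764 neighbours 4.52% were split, beside 3.39% of all regions called in all 4 libraries.

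Heated libraries had less called length at nearly all split regions, as the rule makes likely. Called bp changed by a median of -830 bp (-20.1%), of which the outer ends of the region gave a median of -78 bp. Summed over the 1882 regions, gaps took up 1741324 bp, which is 15.9% of the 10967517 bp called in the Normal libraries, and the outer ends changed by -264601 bp. Both HS libraries had fewer called bp than both Normal libraries at 1825 regions (97.0%, where 36.8% of all 55496 regions did), and more at 12 (0.638%, where 38.1% did). These counts follow from the choice of regions and nothing is read from them.

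The level was lower too, with CPM changed by -16.3% when summed over the 1882 regions, beside -18.3% in called length. The regions held 7.20% and 7.21% of the cut sites of nuclei in the HS libraries, against 8.61% and 8.59% in the Normal libraries. The log2 ratio of HS over Normal had a median of -0.29, with quartiles of -0.53 and -0.12. Both HS libraries were below both Normal libraries at 1626 regions (86.4%, where 42.7% of all regions were) and above them at 142 (7.55%, where 41.9% were). Per called kb the picture was mixed. Density was higher in both HS libraries at 944 regions (50.2%, where 37.4% of all regions were) and lower at 633 (33.6%, where 38.9% were), with a median log2 ratio of 0.05. In the 1692 regions of the opposite pattern this median was -0.04. Gap bp, where signal fell below the caller's limit, leave the HS length, which can raise HS density by the rule alone. No greater openness is read from it. Over all split regions together, the difference came to 6.98 CPM for each kb lost, beside 8.04 per kb still called in HS and 7.84 per kb called in Normal. This value mixes the removed bp with any change in the bp that were kept, and the matrices do not separate them.

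**Figure D3:**
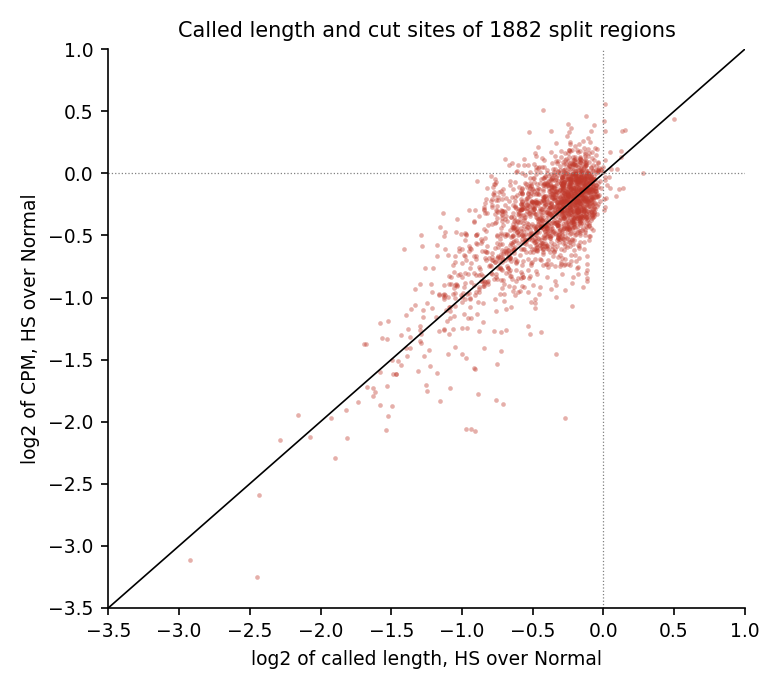
Log2 of CPM, HS over Normal (y axis), against log2 of called length, HS over Normal (x axis), each as a ratio of means of the 2 libraries. Every point is 1 of 1882 split regions and the diagonal marks equal change in both; the points spread along the diagonal and their median on the y axis is -0.29.

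Regions with wider gaps had lower ratios of cut sites, as the counting makes likely, while their ratios of density were alike. The 586 regions with a summed gap under 600 bp had a median log2 ratio of cut sites of -0.21, and the 100 regions with 2000 bp or more had -0.49. The median log2 ratio of density was 0.07 and 0.05 in these classes. By length, the 194 regions with a Normal peak under 2000 bp lost a median of 44.9% of it. Their median log2 ratio of cut sites was -0.66. The 67 regions of 16000 bp or more lost a median of 8.18% and had a median log2 ratio of -0.23. Cut sites of a gap are missing from the HS counts only, so a wider gap lowers this ratio by construction. Every split region must hold a gap of a smallest size, which takes a larger share of a short peak. Neither trend in cut sites is therefore read as a result of its own.

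At an adjusted p of at most 0.01 and a 2-fold change, edgeR's quasi-likelihood test with Benjamini-Hochberg adjustment called 119 of the 1882 regions lower after heat (6.32%, where 2.63% of all 55496 regions were) and 0 higher (where 1.93% were). At an unadjusted p under 0.05, 1661 split regions passed in either direction (88.3%, where 67.7% of all regions did). DESeq2 called 120 lower and 0 higher (where 3.19% and 2.20% of all regions were). All 1882 regions passed the filter on low counts. With called length as an offset, 7 were lower and 0 higher (where 0.231% and 0.207% were). The regions were chosen on the same contrast, so these are counts without further reading.

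The widest gaps were opened in very long peaks. On chromosome 4, from 31573358 to 31606817, the Normal libraries had single peaks of 33387 and 33351 bp, and the HS libraries had 3 and 2 peaks with 9907 and 9840 bp of gaps. CPM was 276 and 273 in HS and 334 and 328 in Normal. HS lay below Normal there while density was higher, at 11.7 and 11.6 CPM per kb in HS against 10.0 and 9.85 in Normal. On chromosome 2, from 4187582 to 4214205, each HS library had 5 peaks with 8930 and 9922 bp of gaps. Its CPM differed little, at 121 and 119 in HS and 131 and 131 in Normal, although called length was lower by 9525.5 bp. Further regions on chromosome 1 from 33154045 to 33172233 and on chromosome 5 from 9541438 to 9553127 opened a mean of 7233 and 6294.5 bp. Density was higher in HS than in Normal in both of these as well. Wide gaps take stretches with little signal out of the HS length, so nothing is read from these densities.

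The most finely divided region lay on chromosome 2 from 14795551 to 14809502, with 8 and 6 HS peaks. It had 20.8 and 21.8 CPM in HS and 41.9 and 41.5 in Normal, and its called length was 6328 and 7044 bp in HS and 13932 and 13947 bp in Normal. Both measures were lower in HS by a like factor, and the HS gaps opened a mean of 6999 bp. Another region with 7 and 6 HS peaks, on chromosome 1 from 25203200 to 25224905, had 111 and 111 CPM in HS and 268 and 269 in Normal. Here cut sites fell by more than length did, since 15678 and 16306 bp were called in HS and 21699 and 21706 bp in Normal, and density was 7.05 and 6.79 in HS against 12.3 and 12.4 in Normal. A region on chromosome 2 from 33304550 to 33325939 also had 7 and 6 HS peaks, with 125 and 126 CPM in HS and 199 in each Normal library. The longest of these, on chromosome 2 from 33865419 to 33895515, had 5 peaks in each HS library and the smallest change among these 4, with 365 and 367 CPM in HS and 427 and 425 in Normal.

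The largest fall was on chromosome 2 from 9268620 to 9275466, with 3.03 and 3.54 CPM in HS and 31.5 and 31.1 in Normal. Little of the peak was left: 1136 and 1344 bp were called in HS, against 6813 and 6762 bp in Normal. A similar region, on chromosome 2 from 19268929 to 19284674, had 5.61 and 6.26 CPM in HS and 51.7 and 51.3 in Normal. There the gap itself was small, at 1020 and 874 bp, and the outer ends changed by a mean of -12684 bp. The other 3 large falls were in weak regions. They lay on chromosome 10 from 21272676 to 21274206, on chromosome 11 from 11383785 to 11384739 and on chromosome 11 from 5795567 to 5797824. None of them exceeded 1.10 CPM in HS or 4.79 in Normal. The last of these overlaps LOC_Os11g10710, a gene on the study's root hair list, and had 443 and 469 called bp in HS against 2245 and 2210 bp in Normal.

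Some regions were split and yet held more CPM in HS. The highest ratio of HS over Normal was on chromosome 7 from 7019913 to 7021808, with 5.63 and 6.17 CPM in HS and 3.62 and 4.37 in Normal. On chromosome 5 from 29491056 to 29493111 the values were 10.4 and 10.5 in HS and 7.44 and 7.22 in Normal, while called length was shorter, at 1475 and 1506 bp in HS against 2012 and 1990 bp in Normal. Density in this region was accordingly higher, at 7.04 and 6.99 in HS against 3.70 and 3.63 in Normal. On chromosome 1 from 39379675 to 39386692 the outer ends gained a mean of 2495 bp, more than its gaps took away. Its CPM was 17.3 and 18.2 in HS and 13.1 and 13.2 in Normal. The remaining pair, on chromosome 2 from 18715032 to 18718803 and on chromosome 8 from 27513286 to 27517567, had log2 ratios of 0.46 and 0.42. All 5 lay under the 2-fold limit and were not called.

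**Figure D4:**
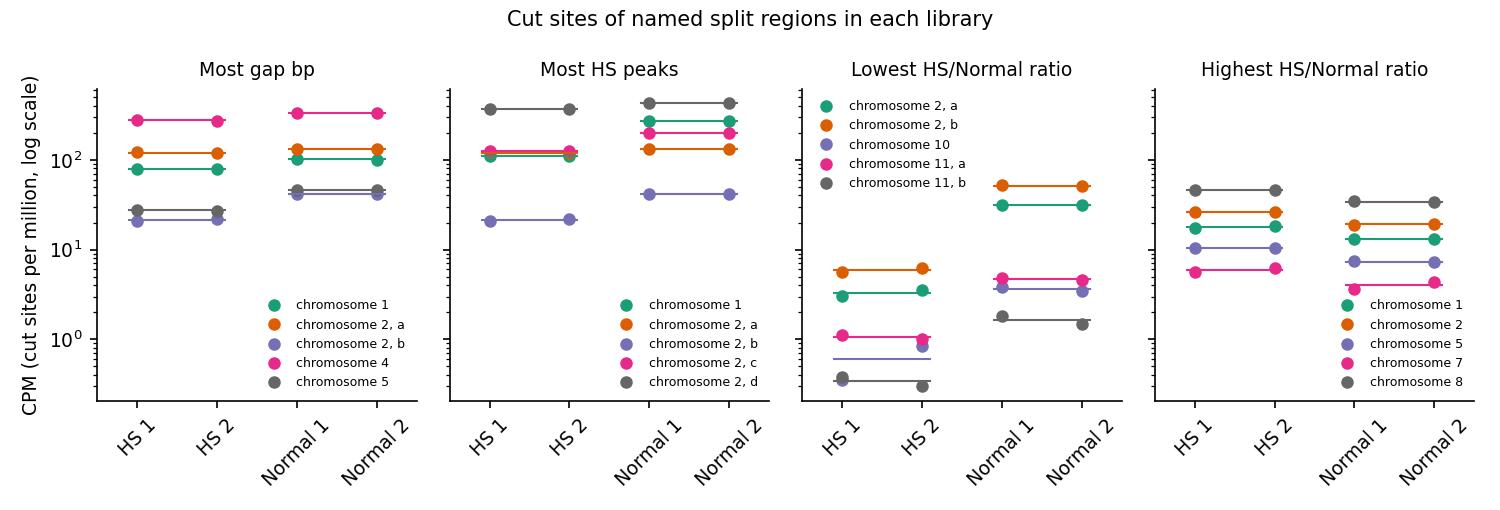
CPM on a log scale (y axis) in HS replicates 1 and 2 and Normal replicates 1 and 2 (x axis), for the 5 regions with the most gap bp, the most HS peaks, the lowest and the highest ratio of HS over Normal. Points are libraries, short lines are means of a condition, and regions of 1 chromosome are lettered by their order along it; in each panel the replicates of a condition lie close together, and the lowest values are the HS points of the weak regions with large falls.

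Genes could be placed for 1871 loci whose positions the study lists. Of these, 1775 (94.9%) met a region called in all 4 libraries with their body or the 2000 bp upstream. A split region was met by 132 (7.06%), all of them on the root hair or the root cap list. These genes met 118 of the 1882 split regions, in 134 pairs, and in 82 pairs the region covered the start of the gene. Of the gap midpoints in these pairs over both HS libraries, 88 lay in the gene body, 47 in the upstream window and 193 elsewhere in the region. None of the 40 loci on the list of heat shock proteins and heat stress transcription factors had a position there, so heat genes were not analysed here.

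A pair of root cap marker loci met a split region. LOC_Os03g14270, which belongs to the LBD family of plant transcription factors, lies whole inside the region on chromosome 3 from 7814611 to 7819050. Its gene body runs from 7815612 to 7818036 on the minus strand, and each HS library had 3 peaks here. CPM was 7.71 and 8.90 in HS and 13.6 and 14.5 in Normal, with 2362 and 3164 bp called in HS against 4391 and 4436 bp in Normal. LOC_Os07g39530 begins at 23449332, close to the end of the region on chromosome 7 from 23435147 to 23449629, and its gaps of 823 and 851 bp lie upstream of it. This region had 92.9 and 92.6 CPM in HS and 126 in each Normal library, with 13633 and 13632 bp called in HS and 14471 and 14465 bp in Normal. HS lay below Normal without overlap in both regions, as it did at 86.4% of split regions and 42.7% of all regions. The cut sites of their gaps are missing from the HS counts, so nothing is read from this for these loci.

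Nuclei were grouped by cut sites at marker regions, 7 for root hair and 10 for root cap, and by the LOC_Os01g15610 locus, an endodermis marker. Several of the root hair marker regions lie together on chromosome 10, between 16835510 and 16885590. Root hair-like nuclei numbered 1361 and 1311 in HS and 1616 and 1576 in Normal, root cap-like nuclei 549 and 567 in HS and 654 and 637 in Normal, and nuclei with LOC_Os01g15610 signal 843 and 854 in HS and 631 and 629 in Normal. The last group rests on a single locus and is not given a cell type. It made up 7.86% and 7.96% of nuclei in HS and 4.97% and 4.99% in Normal. Whether the same kinds of nuclei entered it in both conditions was not tested, which limits what its heat effects mean. Unmarked nuclei, which met none of the thresholds, made up between 69.2% and 72.4% of a library, and nuclei that met several were left out. Regions at other root hair genes were higher in root hair-like than in unmarked nuclei at 160 of 160 regions, with a median log2 ratio of 1.69. Regions at other root cap genes were higher in root cap-like nuclei at 152 of 154 regions, with a median of 1.22. The lists were not exclusive, as regions at root cap genes were also higher in root hair-like nuclei at 108 of 154 and regions at root hair genes in root cap-like nuclei at 124 of 160. The study chose these lists on the same libraries, so these counts are not independent evidence for the groups. The groups share the peaks of their library, so that a difference between them is not set by called length.

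The nucleus groups differed little in the share of their cut sites that split regions held. Split regions held between 7.06% and 7.24% of the cut sites of a group in the HS libraries and between 8.24% and 8.63% in the Normal libraries, over 4 groups and 2 libraries of each condition. The lowest Normal shares, 8.24% and 8.26%, were those of nuclei with LOC_Os01g15610 signal. All groups of a library are counted in the same peaks, which the rule chose as interrupted in HS, so the lower HS shares are not separate observations.

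In Normal root tips, some split regions differed between nucleus groups. By the quasi-likelihood test with library as a block, 83 of the 1882 regions were higher in root hair-like than in unmarked nuclei (4.41%, where 6.17% of 55477 regions were) and 42 were lower (2.23%, where 3.79% were). In root cap-like nuclei 51 were higher (2.71%, where 3.89% were) and 57 lower (3.03%, where 5.22% were). In nuclei with LOC_Os01g15610 signal 23 were higher (1.22%, where 3.51% were) and 76 lower (4.04%, where 4.87% were). All of these shares lay below those of all regions. Split regions are also longer than most, and the part of length in this was not tested. The count for root cap-like nuclei, 108 in both directions together, was 188 with marker thresholds 1.5 times as high. Calls over all 55477 regions rose too, from 2158 higher and 2897 lower to 2786 higher and 4413 lower.

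For root hair-like nuclei 27 split regions, 18 higher and 9 lower, had a p too small to be written, with log2 ratios from -1.51 to 2.63. The 3 described are the first of these along the genome, not those with the largest ratios. One was at LOC_Os01g10210, a gene on the root hair list, in the region on chromosome 1 from 5389049 to 5395289. In HS libraries root hair-like nuclei had 60.3 and 59.5 CPM there, against 20.2 and 20.1 in unmarked nuclei. In Normal libraries they had 60.0 and 55.8 and unmarked nuclei 19.7 and 18.8, a 3.11-fold ratio. The contrast was thus present in each condition, with a gap of 530 and 926 bp opened in the HS peaks. LOC_Os01g14440, which encodes a transcription factor of the WRKY family, lies in the region on chromosome 1 from 8088533 to 8107247, which was 2.25-fold higher in root hair-like nuclei of Normal libraries. Its values were 303 and 306 CPM in root hair-like and 166 and 167 in unmarked nuclei of HS libraries, and 434 and 429 against 199 and 198 in Normal libraries. At no listed gene, on chromosome 1 from 25675392 to 25684739, the contrast went the other way, with 66.1 and 66.3 in root hair-like and 148 and 147 in unmarked nuclei of Normal libraries.

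In root cap-like nuclei the lowest p was that of the region on chromosome 1 from 37607379 to 37616610, which meets LOC_Os01g64430 and LOC_Os01g64440. It was 3.14-fold higher, with 179 and 183 CPM in root cap-like and 57.5 and 58.1 in unmarked nuclei of Normal libraries and an adjusted p of 9.30e-71. LOC_Os01g64430 is on the root hair list and LOC_Os01g64440 on the root cap list. Root hair-like nuclei of Normal libraries were also more than 2-fold higher than unmarked nuclei there, so the contrast was not specific to root cap-like nuclei. The next lowest p was that of the region at LOC_Os08g15420, on chromosome 8 from 8929673 to 8934410. The locus is on both the root hair and the root cap list. Root cap-like nuclei had 95.4 and 96.2 CPM and unmarked nuclei 25.2 and 24.8 in Normal libraries, a 3.85-fold ratio with an adjusted p of 1.70e-66. The log2 ratio of root hair-like over unmarked nuclei was 1.68 at this region, so both groups were high. On chromosome 2 from 31796495 to 31807039 root cap-like nuclei were lower, with 64.3 and 63.7 against 179 and 176 in unmarked nuclei. Of the marker loci, LOC_Os03g14270 was 3.42-fold higher in root cap-like nuclei of Normal libraries with an adjusted p of 1.50e-38. Its region had 20.9 and 26.7 CPM in root cap-like and 6.82 and 7.28 in unmarked nuclei of HS libraries, and 38.0 and 41.7 against 11.0 and 12.4 in Normal libraries.

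In nuclei with LOC_Os01g15610 signal the region on chromosome 4 from 27715247 to 27722219 had 104 and 114 CPM in HS libraries, against 32.1 in each for unmarked nuclei, with 3 HS peaks in place of the single one. In Normal libraries it had 118 and 132, against 31.7 and 33.2 in unmarked nuclei, a 3.82-fold ratio with an adjusted p of 9.47e-69. A weaker region on chromosome 2 from 18252250 to 18255832 was 4.35-fold higher, with 62.5 and 66.0 in these nuclei and 14.5 and 14.9 in unmarked nuclei. On chromosome 2 from 16526170 to 16535588 these nuclei were lower, with 15.3 and 16.3 CPM against 30.3 and 30.5 in unmarked nuclei of HS libraries and 38.7 and 35.9 against 121 and 119 in Normal libraries. The last of these regions also lost much signal as a whole after heat, with 26.9 and 27.3 CPM over all nuclei in HS and 115 and 114 in Normal.

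Split regions at genes of the root hair list alone numbered 65. In root hair-like nuclei 37 of them were higher past both limits and 0 lower (where 6.17% and 3.79% of all regions were). Their median log2 ratio was 1.11 beside -0.01 over all regions. In root cap-like nuclei 5 of the 65 were higher and 0 lower (where 3.89% and 5.22% were). Of the 51 split regions at genes of the root cap list alone, 20 were higher in root cap-like nuclei and 0 lower, with a median of 0.81. In root hair-like nuclei 9 of the 51 were higher (where 6.17% of all regions were). The shares at list genes outside split regions are not given here. The study chose both lists on these same libraries, so the directions are not independent evidence.

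The heat effect was rarely called different between nucleus groups at split regions. The interaction test called 1 region higher and 0 lower for root hair-like minus unmarked nuclei (0.0531% and 0.00%, where 0.258% and 0.184% of all regions were). It called 2 higher and 5 lower for root cap-like nuclei (where 0.204% and 0.164% were), and 5 higher and 1 lower for nuclei with LOC_Os01g15610 signal (where 0.105% and 0.128% were). The root hair-like count was 4 without HS replicate 1, and the root cap-like count was 4 without Normal replicate 2 and 3 by DESeq2. The count for LOC_Os01g15610 signal was also 3 by DESeq2. At an unadjusted p under 0.05, 817 split regions passed for root hair-like nuclei (43.4%, where 28.8% of all regions did), 609 for root cap-like nuclei (32.4%, where 19.7% did) and 548 for LOC_Os01g15610 signal (29.1%, where 18.6% did). Split regions were longer, with a median Normal called length of 4516.75 bp beside 1401.5 bp over all regions. The part of length in these shares was not tested. The quartiles of the log2 difference were -0.16 and 0.09 for root hair-like nuclei (-0.18 and 0.13 over all regions). They were -0.17 and 0.14 for root cap-like nuclei (-0.22 and 0.18), and -0.10 and 0.16 for LOC_Os01g15610 signal (-0.18 and 0.16).

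The largest such difference was again on chromosome 2 from 19268929 to 19284674. Root cap-like nuclei had 14.2 and 21.8 CPM there in HS libraries and 47.4 and 56.0 in Normal libraries, and unmarked nuclei 4.42 and 4.70 in HS and 52.0 and 51.5 in Normal. Both groups were lower in HS, root cap-like nuclei by less, with a log2 difference of 1.98 and an adjusted p of 2.55e-29, and the call held under all 9 alternatives tried. Nuclei with LOC_Os01g15610 signal had 6.51 and 6.94 in HS and 19.2 and 21.3 in Normal, which gave a log2 difference of 1.92. On average 2064.5 bp of this region were called in HS and 15695.5 bp in Normal. A difference between groups in the bp that lost their call and a difference in the bp that kept it cannot be told apart from these counts.

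Within the HS libraries, where each piece has its own counts, the pieces of a single region could be compared between nucleus groups. Pieces were HS peaks merged over both HS libraries, and the test (edgeR's diffSpliceDGE, adjusted over all regions with at least 2 pieces) was added after the data were seen. It rests on 2 libraries with both groups each. The pieces of 248 of 1850 tested split regions differed in their ratio of root hair-like over unmarked nuclei by an adjusted p of at most 0.01 and 2-fold (13.4%, where 14.4% of all 3310 such regions did). In 163 of them the highest and the lowest piece lay on opposite sides of the unmarked level. For root cap-like nuclei it was 218 of 1850 (11.8%, where 12.4% of all did), with 157 on opposite sides. For LOC_Os01g15610 signal it was 172 of 1853 (9.28%, where 9.84% did), with 114 on opposite sides. The difference between the pieces exceeded 2-fold in each HS library taken alone in 190 regions for root hair-like nuclei, 151 for root cap-like nuclei and 116 for LOC_Os01g15610 signal. Its median over all tested split regions was 0.40 on the log2 scale for root hair-like nuclei, 0.45 for root cap-like nuclei and 0.38 for LOC_Os01g15610 signal. Over the other divided regions these medians were 0.42, 0.47 and 0.39. The called shares were near those of all divided regions. For opposite sides and for 2-fold differences in each HS library, no share over all divided regions is given. Those counts are therefore not read as a trait of split regions.

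On chromosome 10 from 16901547 to 16909984, which meets the root hair list genes LOC_Os10g31750 and LOC_Os10g31760, gaps of 513 and 534 bp parted 2 unlike pieces. Marker regions nearby, between 16835510 and 16885590, had served to define the root hair-like nuclei, while this region had not. Its ratios are thus not independent of that choice. The piece from 16901656 to 16904792 had 94.7 and 96.1 CPM in root hair-like and 16.5 and 17.1 in unmarked nuclei, a 5.98-fold ratio. The piece from 16905306 to 16909984 had 50.7 and 48.1 against 40.3 and 39.7, a 1.30-fold ratio, and it holds the whole of LOC_Os10g31760. The single Normal peak had thus covered stretches that differed in HS libraries, with an adjusted p of 3.50e-40. A like pair lay on chromosome 7 from 26593657 to 26598854, at 4.30-fold and 1.13-fold. On chromosome 1 from 27218205 to 27229607 the ratios were 1.11 and 0.313, so that a stretch low in root hair-like nuclei adjoined another near the unmarked level.

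The root cap marker locus LOC_Os07g39530 gave the lowest p for root cap-like nuclei, at 2.82e-219. Its start lies in the piece from 23446217 to 23449629 on chromosome 7, which had 104 and 97.0 CPM in root cap-like and 12.8 and 13.5 in unmarked nuclei, a 7.85-fold ratio. The longer piece from 23435147 to 23445393 had 82.9 and 83.1 against 67.2 and 66.7, a 1.28-fold ratio. The marker region next to this one, at the same gene, had served to define the root cap-like nuclei, while the split region itself had not. The ratios and the p at this locus are thus not independent of that choice. LOC_Os03g60260, on the root cap list, runs from 34862385 to 34864303 across the gap of the region on chromosome 3 from 34861617 to 34868437. Marker regions at LOC_Os03g60279, from 34872652 to 34873912 and from 34876718 to 34878384, lie near this region and had also served to define the root cap-like nuclei. The ratios here are thus not independent of that choice. In this split region the piece from 34863757 to 34868437 was 4.15-fold higher in root cap-like nuclei. The piece from 34861619 to 34863097, on the other side of gaps of 667 and 664 bp, had a ratio of 0.734, with 8.78 and 8.49 CPM in root cap-like and 12.3 and 12.0 in unmarked nuclei.

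For nuclei with LOC_Os01g15610 signal the pair of pieces with the lowest p was on chromosome 8 from 25765866 to 25773700. The piece from 25765908 to 25768396 had 38.4 and 39.0 CPM in these nuclei and 8.28 and 7.85 in unmarked nuclei, a 4.86-fold ratio. The other piece had 53.5 and 53.2 against 56.7 and 56.5, with a ratio of 0.955. On chromosome 11 from 23744432 to 23750698 the highest and the lowest piece had ratios of 5.98 and 0.729, with an adjusted p of 1.16e-15. The region on chromosome 1 from 32076134 to 32085499 stood among the first 3 for both root cap-like nuclei, at ratios of 1.65 and 0.505, and nuclei with LOC_Os01g15610 signal, at 1.98 and 0.601. In both groups the piece from 32076136 to 32082953 was the higher one.

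**Figure D5:**
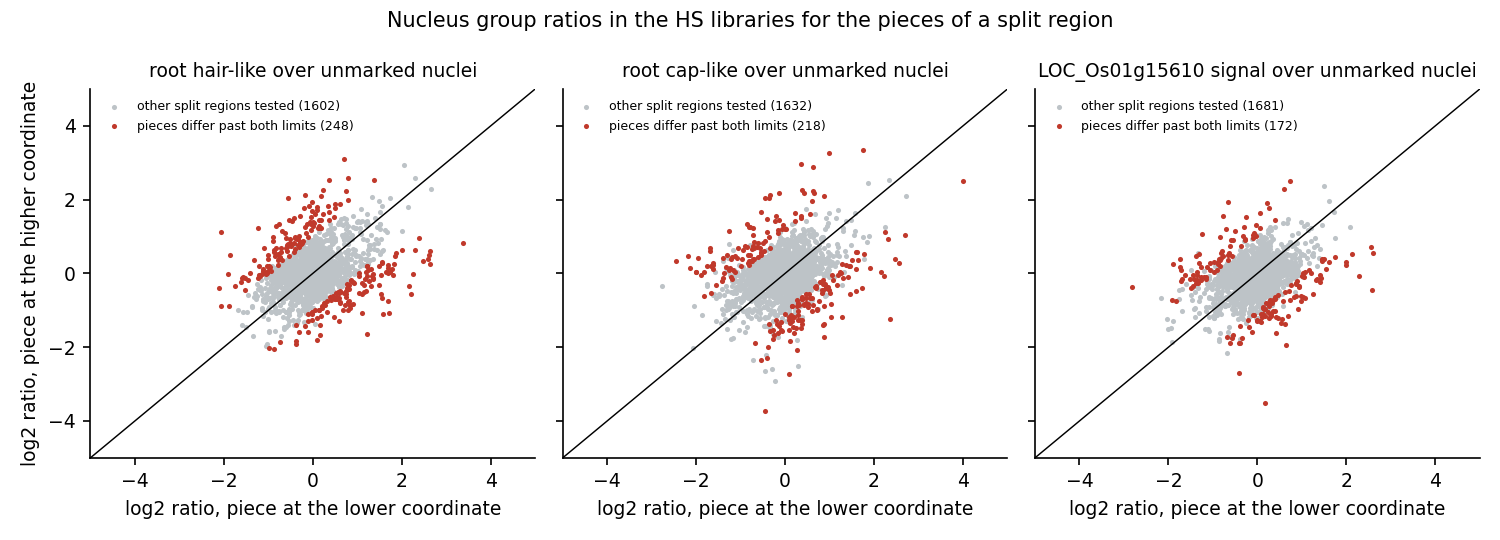
Log2 ratio of a nucleus group over unmarked nuclei in the HS libraries, for the piece at the higher coordinate (y axis) against the piece at the lower coordinate (x axis) of each tested split region, where the 2 pieces are those with the highest and the lowest ratio. Red points are the 248, 218 and 172 regions whose pieces differed past both limits, grey points the others, and the diagonal marks equal ratios; red points lie on both sides of the diagonal in each panel.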

How the data were processed

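Nuclei from rice root tips were profiled by single-cell ATAC-seq in 4 libraries, grouped by their titles, with the heat treatment as the study's text gives it. The authors ran the Cell Ranger ATAC pipeline, version 1.2.0 per the submitters' processing notes, on each library separately, and deposited raw counts of Tn5 cut sites per peak and barcode over all barcodes, together with the peak coordinates of each library. Neither the genome build nor the peak caller's settings are named in the sources used here. Peaks were called per library and not on pooled libraries.

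Peaks sharing at least 1 bp were merged in Python 3.11.15 with numpy 2.4.6, pandas 2.3.3 and scipy 1.17.1, and plots were drawn with matplotlib 3.10.9. Nuclei were the barcodes with the most cut sites, to the number in the study's supplement, which left 328595993 to 341590315 cut sites per library. CPM is the number of cut sites per 1000000 cut sites of the nuclei in a library or nucleus group, and density divides it by the called kb. A nucleus entered the root hair-like or root cap-like group with at least 4 marker cut sites per 10000, at least 6 marker cut sites and at least 3 open marker regions, and the LOC_Os01g15610 group with at least 1.5 per 10000 and at least 4 cut sites at that locus. Marker regions were merged regions of at most 12500 bp at a marker gene or its 2000 bp upstream, with called lengths that differed little between libraries. No doublet caller was run, nuclei that met several thresholds were left out, and an alternative left out the 5% of nuclei with the most cut sites.

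Sums per library, or per library and nucleus group, were tested over the regions with a peak in all 4 libraries by edgeR 4.0.16 in R 4.3.3 (TMM, filterByExpr, quasi-likelihood test, Benjamini-Hochberg adjustment), with calls at an adjusted p of at most 0.01 and 2-fold. HS was compared with Normal by condition alone. Nucleus groups were compared with library as a block, and the difference of the heat effect between groups was the interaction in the same fit. The biological coefficient of variation was 0.0759. Pieces of HS peaks were compared with diffSpliceDGE. DESeq2 1.42.0 was an alternative test, and further alternatives changed the filter, the scaling, the barcodes, the marker thresholds, the smallest gap, the smallest peak, the merging distance, the blocks and the libraries. On simulated data with changed regions, the HS against Normal test called 34% of 2-fold and 94% of 3-fold changes over 55496 regions, with 0 false calls. The root cap-like interaction called 38% of 2-fold and 90% of 3-fold differences over 55495 regions, with 1 false call.

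Regions are named by a rule: the 5 with the most gap bp, the 5 with the most HS peaks, the 5 with the lowest and the 5 with the highest ratio of CPM, those at marker genes, and the 3 with the lowest p among the calls of each nucleus group comparison. For pieces, the 3 regions with the lowest p of each group are named. Gene positions and transcription factor families came from the study's supplementary tables. The split regions, gene lists and tests were chosen with earlier results of these data known. No sequence is printed, as no genome of the files' build was used here. The replicate numbers do not pair the libraries: the differences between replicates 1 and 2 of HS and of Normal had a correlation of 0.02 over 55496 regions.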

Additional observations from a re-analysis of the deposited data

Results flagged for a closer look

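At 12 split regions the heat effect differed between a marker-grouped set of nuclei and unmarked nuclei by the interaction test of edgeR, past an adjusted p of 0.01 and 2-fold, in 14 comparisons. Values are log2 of HS over Normal in the group minus that in unmarked nuclei, and positive values mean that HS stood higher relative to Normal in the group. In every such region the called length was shorter in HS, and the counts do not separate the bp that lost their call from the bp that kept it.

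For root hair-like nuclei, the region on chromosome 3 from 230381 to 233653 differed by 1.21, with 6.36 and 6.53 CPM in HS and 7.24 and 6.39 in Normal, while unmarked nuclei had 5.69 and 5.80 in HS and 14.8 and 13.4 in Normal. Called length there was 1563.5 bp in HS and 3254 bp in Normal. The call held under all 9 alternatives.

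For root cap-like nuclei, the region on chromosome 2 from 19268929 to 19284674 differed by 1.98 and that on chromosome 11 from 1428186 to 1430118 by 1.19, and both held under all 9 alternatives. On chromosome 11 root cap-like nuclei had 16.3 and 16.8 CPM in HS and 12.3 and 12.9 in Normal, and unmarked nuclei 2.32 and 2.46 in HS and 3.90 and 4.39 in Normal, so the groups moved in opposite directions. The 5 negative differences were -1.10 on chromosome 2 from 4741764 to 4745525 at LOC_Os02g09220, -1.02 on chromosome 1 from 5216336 to 5218248, -1.09 on chromosome 1 from 36574616 to 36576995, -1.09 on chromosome 6 from 24465506 to 24469626, and -1.43 on chromosome 2 from 32577475 to 32579371. At LOC_Os02g09220 root cap-like nuclei had 5.59 and 4.18 CPM in HS and 17.3 and 14.6 in Normal, and unmarked nuclei 4.34 and 3.90 in HS and 6.17 and 6.30 in Normal. The other 4 calls were lost without HS replicate 1 and without Normal replicate 2. The adjusted p without these libraries was 0.0324 and 0.158 at 5216336, 0.0437 and 0.118 at 36574616, 0.0952 and 0.0334 at 24465506, and 0.0438 and 0.110 at 32577475. The calls at 24465506 and 32577475 were also lost without Normal replicate 1 (0.0180 and 0.0162), and that at 32577475 without HS replicate 2 (0.0387). The call at LOC_Os02g09220 was lost without Normal replicate 1 (-0.94, adjusted p of 0.0205), and without HS replicate 2 (-0.98, under 2-fold). Of the 5 negative differences, DESeq2 called that at LOC_Os02g09220 and not the other 4. With marker thresholds 1.5 times as high all 5 calls were lost, at adjusted p from 0.0129 to 0.0269. With no replicate block those at 5216336 (0.0122), 36574616 (0.0118) and 32577475 (0.0127) were lost, and that at 5216336 was under 2-fold without the 5% of nuclei with the most cut sites (-0.90). The region on chromosome 2 at 32577475 had 12 and 13 cut sites of root cap-like nuclei in HS and 65 and 88 in Normal.

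For nuclei with LOC_Os01g15610 signal, the difference was 1.92 on chromosome 2 from 19268929 to 19284674, which held under all 9 alternatives. It was 1.06 on chromosome 1 from 4170031 to 4177812, where these nuclei had 12.9 and 15.3 CPM in HS and 32.2 and 30.2 in Normal, and unmarked nuclei 17.1 and 17.3 in HS and 78.2 and 80.0 in Normal. The other values were 1.00 on chromosome 11 from 1987019 to 1992797, -1.07 on chromosome 6 from 24465506 to 24469626, 1.14 on chromosome 11 from 23939779 to 23941308 and 1.01 on chromosome 12 from 14016679 to 14019740. On chromosome 11 at 23939779 these nuclei had 4.65 and 6.14 CPM in HS and 3.58 and 3.21 in Normal, and unmarked nuclei 5.66 and 5.78 in HS and 7.90 and 8.0 in Normal. The differences at 4170031 (0.95) and 1987019 (0.95) were under 2-fold without HS replicate 2, as was that at 1987019 without Normal replicate 1 (0.88). The difference at 4170031 was also just under the limit without Normal replicate 2. The call at 24465506 was lost without HS replicate 1 (adjusted p of 0.0689), that at 23939779 without HS replicate 2 (0.0239), and that at 14016679 without HS replicate 1 (0.0252) and without Normal replicate 1 (0.94, under 2-fold). With higher marker thresholds the difference at 1987019 was just under the limit and the call at 14016679 was lost (0.0435), as it was with no replicate block (0.0182). DESeq2 gave no adjusted p for the regions at 24465506, 23939779 and 14016679.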

How the results depend on the processing

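Of 152 alternatives to the main values of the comparisons, 130 kept the direction and stayed within 1.5 times the value or within the replicate spread, 22 moved further, and none reversed. Many of the main values are counts or gap sizes, which cannot change sign, so a lack of reversals says nothing about them. With peaks of a library under 1000 bp apart joined first, 474 regions met the rule, of which 254 were among the 1882 and 220 were not. The 170 split regions whose gaps were all at least 1000 bp wide had a median gap of 1273.75 bp and a median change in called length of -1477.5 bp. Called length as an offset brought the HS against Normal calls from 2531 to 243, and those at split regions to 7. For root hair-like minus unmarked nuclei, the heat effect differed at 245 regions, at 149 by DESeq2 and at 112 with no replicate block, and at 2 split regions without the 5% of nuclei with the most cut sites and 3 with higher marker thresholds. For root cap-like nuclei it differed at 204 regions, at 84 by DESeq2 and at 122 with no replicate block, and at 3, 11 and 4 split regions by DESeq2, with higher marker thresholds and with no replicate block. Higher marker thresholds gave 188 split regions between root cap-like and unmarked nuclei, while calls over all regions rose as well, to 2786 higher and 4413 lower. For LOC_Os01g15610 signal the heat effect differed at 129 regions, at 12 by DESeq2 and 57 with no replicate block, and at 3 split regions by DESeq2.

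With 1 library left out, the rule gave 2477 to 2665 split regions. The median gap was 670.5 to 687.5 bp in a single HS library, over the 1882 split regions and not over regions picked anew. With 1 library left out, the change in called length was -842.5 to -806.25 bp. HS against Normal then gave 2199 to 2943 calls, with 111 to 129 at the 1882 split regions. Calls between nucleus groups at split regions were 119 to 130 for root hair-like, 97 to 114 for root cap-like and 97 to 110 for LOC_Os01g15610 signal. The heat effect differed at 259 to 275 regions for root hair-like nuclei (1 to 4 split regions), at 128 to 211 for root cap-like nuclei (4 to 6) and at 94 to 171 for LOC_Os01g15610 signal (4 to 7), with 128 reached without Normal replicate 1.

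With the replicate number as a block, HS against Normal gave 2400 calls, 119 of them at split regions. Leaving out libraries for the pieces and for the ratios of named regions, and dropping the filter for the pieces, were chosen after seeing the data, and the values recomputed so kept their direction. For the pieces this was likely from the start, since the highest and the lowest piece were chosen on the same libraries. The 35 tests of named regions kept their call in 224 alternatives, lost it in 40 and gained it in 1. Counts limit the weakest regions, which held under 100 cut sites of a nucleus group in a library, and a count per region cannot show where inside a Normal peak its cut sites lay.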
